A study of Mus musculus with 2 samples.

Results

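The genes described here encode the proteins of the cytosolic ribosome. They were chosen by name alone, as symbols of the Rpl and Rps series together with Rplp0, Rplp1, Rplp2 and Rpsa. Of 55450 genes in the count matrices, 89 met this rule, 53 of the large and 36 of the small subunit, and 80 of these had at least 100 unique molecular identifiers (UMIs, each standing for 1 captured RNA molecule) over both libraries. The 80 were 47 large and 33 small subunit genes, and 3 of them were annotated as pseudogenes. Nuclei came from the ventrolateral periaqueductal gray (vlPAG), a midbrain region, of wild-type C57BL/6J mice that were 8 weeks old when the diets began. One library held pooled tissue of 18 mice after 7 weeks on a high-fat diet (HFD) and the other held pooled tissue of 18 mice on a normal food diet (NFD). Since each diet is a single library of pooled animals, differences between diets have no replicate check and carry no p, and the 95% intervals below cover counting error only.

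A cytosolic ribosome joins a large subunit, which forms peptide bonds, to a small subunit, which reads the messenger RNA. The proteins are made in the cytoplasm, imported into the nucleus and assembled there with ribosomal RNA, so their messenger RNAs are abundant in the cytoplasm, and isolated nuclei hold only a part of them. Many of these messenger RNAs begin with a run of pyrimidines, the 5′ TOP motif, through which the mTOR pathway controls their translation.

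After nuclei with 500 UMIs or fewer, or with 20% or more mitochondrial UMIs, were left out, 6322 HFD nuclei with 54587419 UMIs and 7500 NFD nuclei with 41042988 UMIs remained. The median depth was 7347.5 UMIs per nucleus in HFD and 4504.5 in NFD, and the median mitochondrial share was 0.226% in HFD and 0.326% in NFD. The libraries shared 13 barcodes. Clustering without the ribosomal protein genes gave 23 clusters, of which 19 were given a class and 4 were left unnamed. GABAergic and glutamatergic clusters were told apart by the summed CPM of Slc32a1, Gad1 and Gad2 against that of Slc17a6, Slc17a7 and Slc17a8, with 1 sum at least 2 times the other, and all other classes by their marker lists. All 3 Slc17a genes had UMIs in the 4 glutamatergic clusters, but only 1 of them was seen in 10% of the nuclei, so that name rests on few markers, and cluster 16 among them was led by genes that include Chat and Slc5a7, which serve acetylcholine. GABAergic cluster 4 also held Slc17a UMIs (247 CPM of the GABA genes and 115 CPM of the Slc17a genes). The cluster led by cerebellar granule neuron genes such as Gabra6 held 814 HFD nuclei and 10 NFD nuclei.

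To show the 5′ ends of these genes, promoter windows from RefSeq (build GRCm38.p6) were matched by symbol for 57 of the 80 genes. A run of a C followed by at least 6 pyrimidines (C or T), read on the gene's strand and starting within 10 bases of the annotated start, was found in 24 of the 57 (42.1%), against 12.3% of 16459 other protein-coding genes and 12.2% of all 27025 promoters. The share was 41.2% for the large and 43.5% for the small subunit. With the C at the annotated start itself and at least 4 pyrimidines after it, 11 of the 57 (19.3%) held a run, against 2.13% of the other protein-coding genes and 2.49% of all promoters. Both definitions were chosen with earlier results of these data known. The windows below run from 40 bases before the annotated start to 20 bases from it onward, with the run in capitals. Rps6, Rps12, Rplp2 and Rpl7a hold a run, and Rpl41 and Rpl11 are shown as genes with many UMIs and no run at this place.
Rps6 (GRCm38.p6 chr4:86857348-86857407, minus strand): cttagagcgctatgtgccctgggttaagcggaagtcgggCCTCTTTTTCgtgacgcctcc
Rps12 (GRCm38.p6 chr10:23787190-23787249, minus strand): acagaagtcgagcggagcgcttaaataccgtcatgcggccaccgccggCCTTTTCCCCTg
Rplp2 (GRCm38.p6 chr7:141447611-141447670, plus strand): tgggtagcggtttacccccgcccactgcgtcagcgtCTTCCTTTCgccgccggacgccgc
Rpl7a (GRCm38.p6 chr2:26910767-26910826, plus strand): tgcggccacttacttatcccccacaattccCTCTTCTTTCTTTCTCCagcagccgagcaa
Rpl41 (GRCm38.p6 chr10:128549149-128549208, minus strand): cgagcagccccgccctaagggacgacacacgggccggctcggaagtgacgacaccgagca
Rpl11 (GRCm38.p6 chr4:136053374-136053433, minus strand): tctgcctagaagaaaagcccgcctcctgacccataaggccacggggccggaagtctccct
A run that is not found says only that these letters are not in this window.

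The 80 genes together held 49029 UMIs in HFD and 44133 UMIs in NFD, which is 898 CPM (UMIs per 1000000 UMIs; 95% Poisson interval 890 to 906) in HFD and 1075 CPM (1065 to 1085) in NFD. They thus made up 0.0898% of HFD and 0.108% of NFD UMIs. At least 1 such UMI was seen in 93.5% of HFD and 92.5% of NFD nuclei.

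Among large subunit genes the most UMIs belonged to Rpl41, which encodes the smallest ribosomal protein, with 2649 in HFD and 2493 in NFD, or 48.5 CPM in HFD and 60.7 CPM in NFD. Rplp1, a protein of the acidic stalk that recruits translation factors, had 1461 UMIs in HFD and 1458 in NFD. Rpl8, Rpl11 and Rpl6 followed. Rpl11, which with Rpl5 can bind the p53 regulator Mdm2, had 28.1 CPM in HFD and 26.6 CPM in NFD. Among small subunit genes Rps29 led with 34.3 CPM in HFD and 42.4 CPM in NFD, and Rps15 and Rps14 were among the next highest. Per kilobase of annotated exon, Rplp1 (53.6 CPM in HFD and 71.2 in NFD) and Rps29 (49.5 in HFD and 61.1 in NFD) stood above Rpl41 (41.5 in HFD and 52.0 in NFD) in both libraries.

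Genes of 1 complex had unequal UMI counts. Rplp0, the stalk base, had 5.77 CPM in HFD and 6.33 CPM in NFD, and its partner Rplp2 had 7.11 CPM in HFD and 7.41 CPM in NFD, both far under Rplp1. Rpsa, which also has a form known as a laminin receptor, had 8.92 CPM in HFD and 12.3 CPM in NFD. Rps27a, made as a fusion with ubiquitin, had 6.78 CPM in HFD and 7.92 CPM in NFD. Rpl6l, a processed pseudogene with 65 UMIs in HFD and 55 in NFD, lay just inside the minimum, and Rpl3l, with 18 in HFD and 23 in NFD, lay just outside it.

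The counts were set beside the sequence that each gene shares with others. Rpl13, Rpl24 and Rps10, all core ribosomal proteins, had 0, 3 and 3 UMIs over both libraries, and 100%, 93.4% and 81.5% of their exon bases lay inside another annotated gene on the same strand. Rpl13a, with 82.8%, had 360 UMIs. These 4 genes were set apart, and the rest of the 83 protein-coding genes of the 89 were grouped by shared sequence. In 41 of them at least 50% of the 50-base words in the last 300 transcript bases also occurred in another gene. Their median was 770 UMIs, against 1085.5 UMIs for the 22 with no shared word and 1166.5 UMIs for the 16 with a smaller share. Over the 80 genes the share of words and the log2 UMIs had a Spearman rho of −0.34. Single genes departed from it, as Rpl41, with 62.95% of words shared, had the most UMIs. Outside the 80, Rpl10l, Rpl39l and Rpl3l, with no shared word, had 0, 2 and 41. Another 300 rows named as processed copies of these genes held 13109 UMIs in HFD and 13154 UMIs in NFD. The 2 Rps16 copies held 2242 UMIs, against 623 for Rps16 itself, and the 4 Rps10 copies held 2238. How the reads of a gene and its copies were divided was not tested, so levels of single genes are uncertain where copies exist.

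Levels ranged widely over cell classes. Endothelial cells, which line blood vessels, had 8478 CPM (8212 to 8751) in HFD and 7237 CPM (7041 to 7438) in NFD, from 96 HFD and 255 NFD nuclei. Against GABAergic neurons, at 788 CPM in HFD and 954 CPM in NFD, this was 10.8-fold in HFD and 7.59-fold in NFD. Ependymal cells, the ciliated lining of the ventricles, had 2854 CPM in HFD and 3222 CPM in NFD. Microglia, the resident immune cells, had 1382 CPM in HFD and 2225 CPM in NFD.

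The other classes lay below microglia in each library. Pericytes or fibroblasts had 1021 CPM (775 to 1320) in HFD and 1483 CPM (1147 to 1887) in NFD, from 35 HFD and 32 NFD nuclei. Granule neurons had 1084 CPM in HFD and 630 CPM in NFD, where they were 10 nuclei. Glutamatergic neurons had 742 CPM in HFD and 930 CPM in NFD, serotonergic neurons 726 CPM in HFD and 796 CPM in NFD, and dopaminergic neurons 794 CPM in HFD and 918 CPM in NFD. Astrocytes had 809 CPM (742 to 881) in HFD and 752 CPM (689 to 820) in NFD, and mature oligodendrocytes had 810 CPM in HFD and 1143 CPM in NFD. Oligodendrocyte precursors were lowest in both libraries, with 466 CPM (377 to 569) in HFD and 595 CPM (478 to 731) in NFD. Over the 21 clusters with at least 20 nuclei in each library, CPM in HFD and in NFD had a Spearman rho of 0.81, a description over clusters that share a library within each axis.

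**Figure D1:**
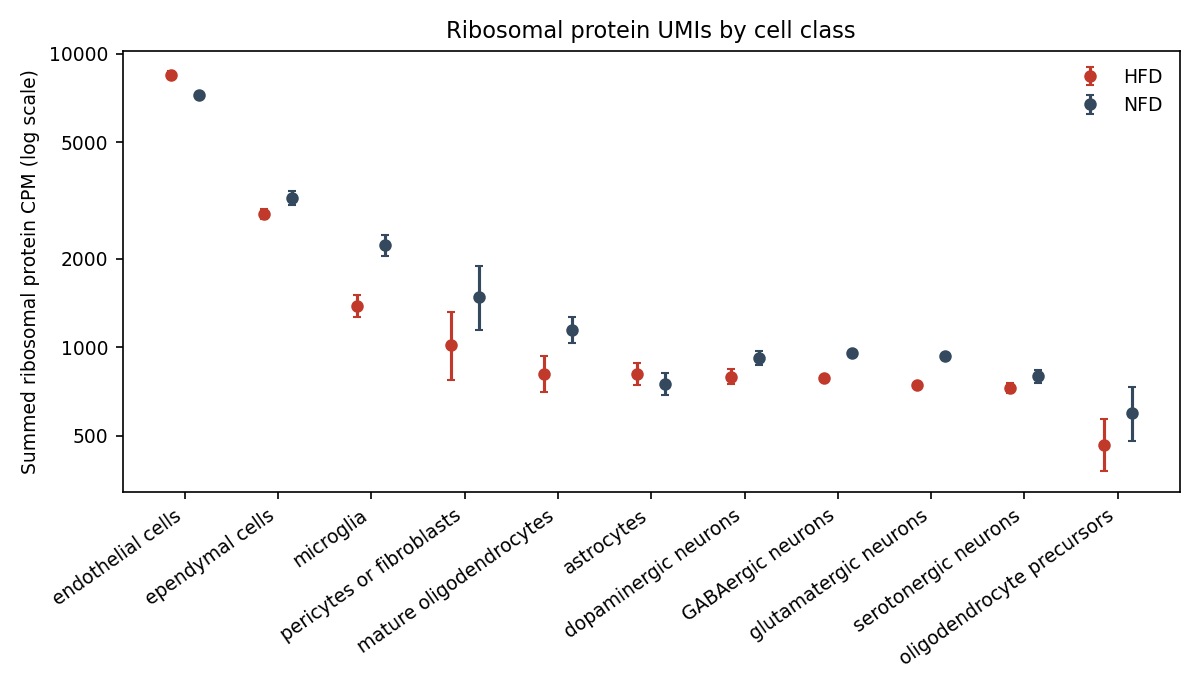
Summed CPM of the 80 ribosomal protein genes (vertical axis, log scale) in each cell class, HFD in red to the left of NFD in blue, with 95% Poisson intervals that cover counting error only. Endothelial cells lie highest, at 8478 CPM in HFD and 7237 CPM in NFD, and oligodendrocyte precursors lowest, at 466 CPM in HFD and 595 CPM in NFD.

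In endothelial cells 52 of 74 genes measured in this comparison were higher than in GABAergic neurons in both libraries, with the interval of the log2 ratio wholly above 0.32, and 0 were lower by the matching rule. Of all 13256 genes measured there, 16.8% were higher by the same rule. The median log2 ratio of the ribosomal protein genes was 3.40 in HFD and 2.69 in NFD, against −0.14 for all genes in both libraries. Rps3, a small subunit protein at the mRNA entry channel, had 332 CPM in endothelial cells and 12.6 CPM in GABAergic neurons in HFD, and 302 CPM in endothelial cells and 17.1 CPM in GABAergic neurons in NFD. Rplp1 had 468 CPM in endothelial cells and 18.5 CPM in GABAergic neurons in HFD, and 423 CPM in endothelial cells and 25.0 CPM in GABAergic neurons in NFD. These genes, with Rps4x, Rps29 and the pseudogene Rps3a2, had the widest ranges over classes, from 4.56 to 5.49 on the log2 scale.

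The other 22 genes, 16 of them of the large subunit, were not higher by this rule in both libraries. Rps12, Rps15a, Rps21 and Rpl7l1 were higher in HFD alone and Rpl7 in NFD alone, and 17 were higher in neither. Several had few endothelial UMIs, such as Rps6 (4 in HFD and 2 in NFD) and Rpl35 (4 in HFD and 5 in NFD). The log2 ratio of Rps6 was 1.98 (0.05 to 3.4) in HFD and −0.42 (−3.5 to 1.5) in NFD. For such genes the lack of a call does not show equal levels. Rpl11 had 17.7 CPM in endothelial cells and 30.4 CPM in GABAergic neurons in HFD, and 16.9 CPM in endothelial cells and 26.7 CPM in GABAergic neurons in NFD, so its log2 ratio was −0.78 (−2.00 to 0.21) in HFD and −0.66 (−1.63 to 0.16) in NFD. Rpl6 had a log2 ratio of 0.48 (−0.37 to 1.21) in HFD and 0.07 (−0.59 to 0.66) in NFD. The median share of 3′ words found in another gene was 76.9% over these 22 genes and 30.7% over the 52, although it was 0 for Rpl11 and Rpl6. The log2 ratios in the HFD and the NFD library had a Spearman rho of 0.92 over 73 genes, which share the nuclei of each library.

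**Figure D2:**
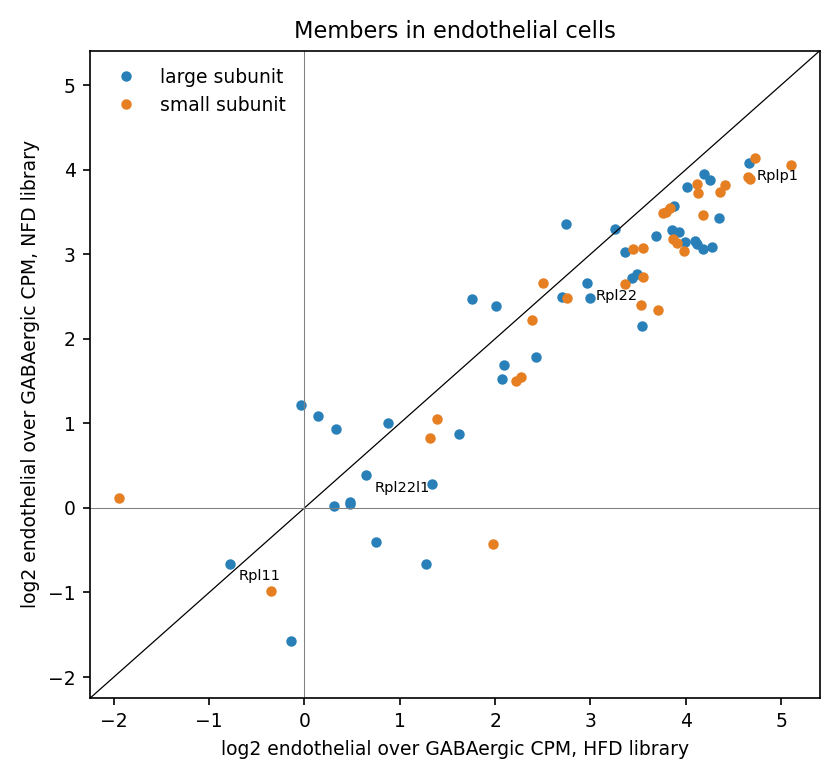
Each point is a ribosomal protein gene of the large (blue) or small (orange) subunit, with its log2 ratio of endothelial to GABAergic CPM in the HFD library (horizontal) and in the NFD library (vertical); the diagonal marks equal ratios and genes with no endothelial UMI in a library are not drawn. Of the 74 genes 48 lie above 2 in both libraries, while Rpl11 lies below 0 in both, at −0.78 in HFD and −0.66 in NFD.

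In ependymal cells 37 of 74 genes were higher than in GABAergic neurons in both libraries, against 16.6% of all genes. Rplp0 had the largest log2 ratio of these in HFD, 3.62 (3.04 to 4.18), with 3.17 (2.29 to 3.97) in NFD. In microglia 8 of 74 were higher (10.8%), the same share as the 10.8% of all genes, and Rps9, Rps24 and Rps29 were among them.

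The level also moved with the mitochondrial share of a nucleus. Endothelial nuclei under 0.1% mitochondrial UMIs, 19 in HFD and 29 in NFD, had 971 CPM (676 to 1351) in HFD and 956 CPM (707 to 1264) in NFD. Those with 2 to 5%, 39 in HFD and 86 in NFD, had 11314 CPM in HFD and 13134 CPM in NFD. Depth differed as well, with medians of 1320 UMIs in HFD and 963 in NFD under 0.1%, and 5009 in HFD and 2421 in NFD at 2 to 5%. The median mitochondrial share was 1.88% in HFD and 1.27% in NFD endothelial cells and 5.74% in HFD and 7.35% in NFD ependymal cells, against 0.289% in HFD and 0.427% in NFD GABAergic neurons. The endothelial cluster also had a mean log2 marker ratio of 3.63 for red blood cell genes and 2.98 for pericyte or fibroblast genes, beside 6.72 for endothelial genes. The unnamed cluster 17, led by Aldoc, Mt1 and Apoe, had 7.54-fold in HFD and 8.82-fold in NFD the GABAergic level, with 46 of 73 genes higher in both libraries, against 7.04% of all genes. The part of mitochondrial share in the class differences was not tested.

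Within GABAergic neurons the same relation held. Nuclei with at least 1% mitochondrial UMIs were set against those under 0.25%, and 63 of 73 ribosomal protein genes in HFD and 65 of 73 in NFD had a ratio above 0 on the log2 scale, with medians of 0.59 in HFD and 0.56 in NFD. Over all genes 7885 of 12826 in HFD and 8319 of 12843 in NFD were above 0, with medians of 0.09 in HFD and 0.11 in NFD. Other short abundant cytoplasmic messenger RNAs, such as Fth1 and Cst3, had medians of 0.80 in HFD and 0.79 in NFD, nuclear-encoded respiratory chain genes 0.48 in HFD and 0.39 in NFD, and nuclear noncoding RNAs −0.01 in both. Depth differed along with mitochondrial share. GABAergic nuclei under 0.1% had a median of 9499 UMIs in HFD and 6126.5 in NFD, and those with 2 to 5% had 5774 in HFD and 2738.5 in NFD. The part of depth in this contrast was not tested.

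The large subunit gave 57.3% of the summed UMIs in HFD and 56.1% in NFD, a ratio of large to small of 1.34 in HFD and 1.28 in NFD. In endothelial cells the large subunit share was 49.99% (48.4 to 51.6) in HFD and 50.2% (48.8 to 51.6) in NFD. In neurons of the 4 classes it was 58.5% (57.96 to 59.1) in HFD and 57.5% (56.95 to 58.1) in NFD, and the intervals of endothelial cells and neurons did not overlap in either library. Ependymal cells had 52.5% in HFD and 54.0% in NFD, and cluster 17 had 50.2% in HFD and 50.9% in NFD. Microglia had 55.3% in HFD and 50.4% in NFD, mature oligodendrocytes 53.5% in HFD and 51.3% in NFD, and astrocytes 55.4% in HFD and 55.8% in NFD. Over all nuclei the share was 59.9% in HFD and 59.3% in NFD under 0.1% mitochondrial UMIs. At 5 to 20% it was 51.7% in HFD and 51.0% in NFD. The part of mitochondrial share in these subunit shares was not tested. Over clusters, large and small subunit CPM had a Spearman rho of 0.83 in HFD and 0.91 in NFD (n = 21 clusters).

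Between diets the summed level was lower in HFD, with a log2 ratio of −0.26 (−0.28 to −0.24) over all nuclei and −0.28 (−0.31 to −0.24) in GABAergic neurons, the cells the study manipulated. It lay between −0.39 and −0.13 in the 11 clusters of the 4 neuron classes, which leave out granule neurons, at 0.78 (−0.26 to 2.10). It was −0.056 (−0.109 to −0.0032) in the unnamed cluster 1, led by genes that include Nts, Sim1 and Ebf2. The difference varied with how depth was treated. HFD nuclei held more UMIs, and CPM fell with UMIs per nucleus within each library. In GABAergic neurons of 2000 to 4000 UMIs the level was 1381 CPM in HFD and 1211 CPM in NFD, and in those of 8000 to 16000 UMIs it was 745.5 CPM in HFD and 792 CPM in NFD. Averaged over bins of UMIs per nucleus with the NFD shares, an alternative chosen after seeing the data, the log2 ratio was −0.041 in GABAergic neurons and −0.0074 over all nuclei. Among nuclei of 2000 to 8000 UMIs it was −0.13 in GABAergic neurons and 0.063 over all nuclei. Nuclei under 2000 UMIs, 18 HFD and 265 NFD among GABAergic neurons, were left out of the thinning. Over all nuclei the bin of 500 to 2000 UMIs held 1008 HFD nuclei at 1966 CPM and 1141 NFD nuclei at 2920 CPM. With each remaining nucleus thinned to 2000 UMIs the log2 ratio was −0.29 in GABAergic neurons and −0.12 over all nuclei. Thinning at random keeps the expected share of these genes in each nucleus, so it cannot show what the fall of CPM with depth contributes. The diet, the depth and the library cannot be told apart here.

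**Figure D3:**
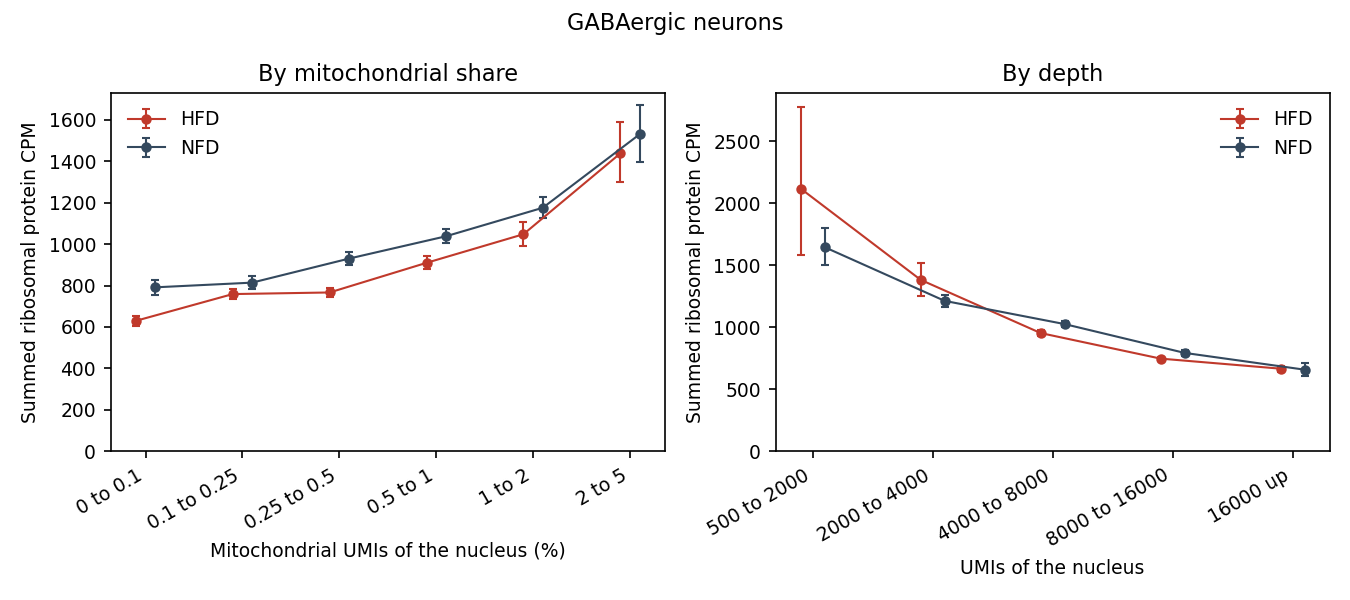
Summed ribosomal protein CPM of GABAergic neurons, HFD in red and NFD in blue, by bin of the nucleus's mitochondrial UMI share (left) and by bin of its UMIs (right), with 95% Poisson intervals. The level climbs with mitochondrial share in both libraries, and by depth it falls in both, with HFD above NFD at 2000 to 4000 UMIs (1381 CPM in HFD and 1211 CPM in NFD) and below it at 8000 to 16000 UMIs (745.5 CPM in HFD and 792 CPM in NFD).

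By gene, 65 of the 80 had a log2 ratio below 0 and 15 above it, while of all 16345 genes 9561 were below and 6784 above. The median was −0.22 over the 80, against −0.04 for all genes. With the interval of the log2 ratio wholly beyond 0.32 in either direction, 8 of 80 were lower in HFD, where 3.15% of all 16345 genes were, and 0 were higher, where 1.72% of all genes were. Rpl8, Rpl6, Rpl23, Rps3, Rps4x and the pseudogene Rps3a2 were among the 8. Among nuclei of 2000 to 8000 UMIs, 0 of these genes were lower, and 4 were lower without endothelial cells and cluster 17. The share of all genes called is not at hand for these 2 settings, so a general loss of calls cannot be told apart. The median was −0.17 for the large and −0.30 for the small subunit over all nuclei, but −0.28 for the large and −0.29 for the small subunit in GABAergic neurons.

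Rps4x, a small subunit protein encoded on the X chromosome, had 506 UMIs in HFD and 560 in NFD, or 9.27 CPM in HFD and 13.6 CPM in NFD, a log2 ratio of −0.56 (−0.73 to −0.38). Rpl8 had 24.8 CPM in HFD and 34.5 CPM in NFD, a log2 ratio of −0.47 (−0.58 to −0.37). Rps6, the S6 kinase substrate used as a readout of mTOR activity, had 2.36 CPM in HFD and 3.41 CPM in NFD from few UMIs, with a log2 ratio of −0.53 (−0.89 to −0.17). At the other end Rpl27, Rpl12, Rpl7a, Rps12 and Rps19 had the highest ratios, 0.31, 0.31, 0.29, 0.11 and 0.10, and none of their intervals lay wholly above 0.32. Rpl12 had 8.66 CPM in HFD and 6.99 CPM in NFD. In GABAergic neurons 6 of 73 genes were lower in HFD, where 1.84% of 12845 genes were, and 0 were higher, where 0.545% were; Rpl32 and Rpl4 were among the 6.

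**Figure D4:**
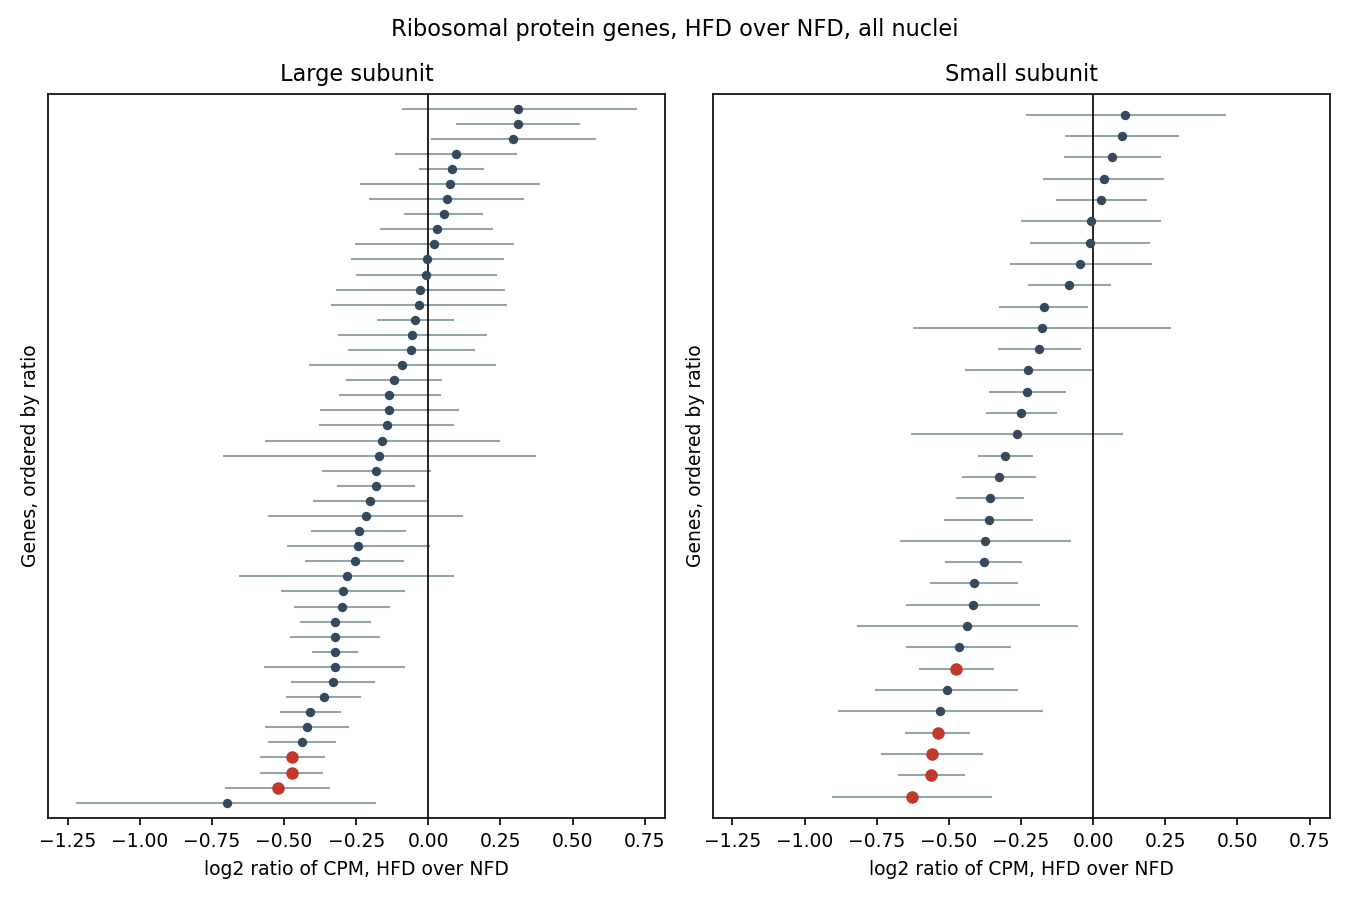
Log2 of CPM in HFD over CPM in NFD, all nuclei, for each large subunit (left) and small subunit (right) gene, 1 line a gene, with 95% intervals for counting error, ordered by ratio; red points are the 8 genes whose interval lies wholly below −0.32. Of the 80 points 65 lie left of 0, and of all 16345 genes, which are not drawn, 9561 had a ratio below 0.

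Paralogues differed in how they followed their parents. Rpl22l1, a close relative of Rpl22 whose expression Rpl22 is known to restrain, made up 22.2% (13.3 to 33.6) of the pair's UMIs in HFD and 23.2% (15.1 to 32.9) in NFD endothelial cells, against 58.9% (55.3 to 62.3) in HFD and 59.2% (55.2 to 63.2) in NFD GABAergic neurons. The level of Rpl22l1 itself was not lower in endothelial cells, at 35.5 CPM in HFD and 31.0 CPM in NFD, against 22.7 CPM in HFD and 23.7 CPM in NFD GABAergic neurons. Rpl22 had 124 CPM in HFD and 103 CPM in NFD endothelial cells, against 15.9 CPM in HFD and 16.3 CPM in NFD GABAergic neurons. Rps27l, a p53 target, made up 97.0% (84.2 to 99.9) of the Rps27l and Rps27 UMIs in HFD and 97.2% (85.5 to 99.9) in NFD endothelial cells, against 49.6% in HFD and 54.3% in NFD GABAergic neurons. For Rps27 every 3′ word occurred in another gene, so this share is uncertain. Rpl7l1 gave 81.6% in HFD and 83.9% in NFD of its pair with Rpl7. For Rpl7 74.1% of 3′ words occurred in another gene, and its processed copy held 464 UMIs, against 326 for Rpl7 itself. For Rpl22l1 63.35% of 3′ words occurred in another gene, so the shares of these pairs are uncertain too. Rps4l, a transcribed pseudogene, had 261 UMIs in HFD and 279 in NFD, against 506 in HFD and 560 in NFD for Rps4x. Rpl10l and Rpl39l, known from the testis, had 0 and 2 UMIs over both libraries, whereas Rpl10 had 278 UMIs in HFD and 200 in NFD and Rpl39 had 457 UMIs in HFD and 395 in NFD.

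Other gene lists, some of the translation machinery and some not, were set beside the ribosomal protein genes (median −0.22) and all genes (median −0.04). Over all nuclei the median log2 ratio of HFD to NFD was −0.04 for 40 translation factors, −0.15 for 32 ribosome biogenesis genes, −0.18 for 74 mitochondrial ribosomal proteins, −0.17 for 74 nuclear-encoded respiratory chain genes, −0.17 for 14 short abundant cytoplasmic messenger RNAs, 0.02 for 12 snoRNA host genes, −0.02 for 17 mitochondrially encoded genes and −0.11 for 8 nuclear noncoding RNAs. Genes lower in HFD by the same interval rule numbered 1 translation factor, 2 respiratory chain genes, 2 short abundant messenger RNAs, 2 mitochondrially encoded genes, 1 nuclear noncoding RNA and 0 of the other 3 lists, against 3.15% of all genes. Another 2 mitochondrially encoded genes were higher in HFD. Eef1a1, the factor that brings aminoacyl-tRNA to the ribosome, had 50.3 CPM in HFD and 70.3 CPM in NFD. Of the 4 ribosomal genes outside the name rule (median −0.33), Fau had 5.13 CPM in HFD and 7.80 CPM in NFD, a log2 ratio of −0.60.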

How the data were processed

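The authors deposited a matrix of raw UMI counts per gene and barcode for each library, made from single-nucleus 10x libraries. The submitters' processing notes name bcl2fastq 5.01, Cell Ranger, Seurat 3.1.1 and GRCm38, and the header of each matrix names version 4.0.0 of Cell Ranger. The counting of intronic reads is not stated there or in the study's methods. All 55450 gene IDs matched GENCODE M21, which gave coordinates. Barcodes passed at over 500 UMIs and below 20% UMIs of mitochondrial genes. Seurat 5.3.0 clustered both libraries together (scale factor 10000, 2000 variable genes without the 2 members among them, 20 principal components, resolution 0.5). Clusters were named from marker lists when the mean log2 ratio was at least 1 (1.5 for serotonergic and dopaminergic neurons) and 3 or more markers were detected in 10% of nuclei, except that a shallow cluster led by none of its markers (17) and a cluster led by more markers of another class (19) stayed unnamed. GABAergic and glutamatergic clusters were named, where no other list passed, from a ratio of at least 2 between their summed markers. They also needed a minimum mean log2 ratio of the general neuron markers Snap25, Rbfox3, Syt1 and Meg3, and GABAergic clusters at least 2 detected GABA markers. Cluster 21 (61 HFD and 8 NFD nuclei) had 570.5 CPM of the GABA genes and 17.3 CPM of the Slc17a genes. It stayed unnamed because its general neuron ratio, −1.41, was under that minimum. These thresholds were set after the clusters were seen. Scrublet (scanpy 1.11.5) marked 0.142% of HFD and 0.0667% of NFD nuclei, so it had not worked and doublets were kept. UMIs were summed per library and class and expressed as CPM. Ratios carry exact conditional binomial 95% intervals, levels exact Poisson and shares Clopper-Pearson intervals. They were checked on counts simulated from the same Poisson and binomial models, which checks the code and says nothing of variation between nuclei. A gene was called when its interval lay wholly beyond 0.32 (log2), among genes with at least 100 UMIs in the nuclei compared.

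Genes named were the 5 with most UMIs per subunit, the 5 highest and 5 lowest diet ratios among those with at least 200 UMIs, the 5 widest ranges over classes (classes with at least 20 UMIs), the stalk genes, Rpsa, Rps27a, the paralogues with their parents and the genes next to the 100 UMI minimum; others were chosen after their values were seen. Some genes that the rule names are not reported here. Members and lists were chosen with earlier results of these data known. Alternatives changed filters, thinning to 2000 UMIs, weighting, denominators, clustering, doublet scores and the minimum UMIs.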

Additional observations from a re-analysis of the deposited data

Results flagged for a closer look

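The summed ribosomal protein genes had a log2 ratio of HFD to NFD of 0.23 (0.17 to 0.29) in endothelial cells and −0.28 (−0.31 to −0.24) in GABAergic neurons, so the sign differed between these classes. The difference between the classes was not tested, as each diet has 1 library. Within endothelial nuclei of 2 to 5% mitochondrial UMIs the ratio was −0.22, and in those of 1 to 2% it was 0.91, from 39 HFD and 86 NFD nuclei and from 12 HFD and 40 NFD nuclei.

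Barcodes that the filter left out, which enter no comparison above, held 15353 CPM of ribosomal protein UMIs in HFD (491 barcodes with a median of 898 UMIs) and 18983 CPM in NFD (125 barcodes with a median of 936 UMIs), far above the 898 CPM in HFD and 1075 CPM in NFD of the nuclei kept. All of them but 1 NFD barcode had at least 20% mitochondrial UMIs.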

How the results depend on the processing

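The lower summed level in HFD over all nuclei (log2 −0.26) was −0.12 with nuclei thinned to 2000 UMIs, −0.17 with each nucleus weighted equally, −0.28 without Malat1 and mitochondrially encoded genes in the total, −0.23 averaged over cell groups, and turned to 0.063 among nuclei of 2000 to 8000 UMIs. In GABAergic neurons (−0.28) it was −0.29 when thinned, −0.34 with equal weights and −0.13 among nuclei of 2000 to 8000 UMIs. Alternatives chosen after seeing the data gave −0.17 over all nuclei and −0.21 in GABAergic neurons averaged over bins of mitochondrial share, −0.0074 and −0.041 over bins of UMIs, −0.026 over all nuclei by cell group and bin of UMIs, and −0.20 without endothelial cells and cluster 17. The large to small subunit difference between diets (0.07) was 0.0113 among nuclei of 2000 to 8000 UMIs and 0.0109 over bins of UMIs. The 8 genes lower in HFD became 5 over 1000 UMIs, 0 when thinned, 0 among nuclei of 2000 to 8000 UMIs and 4 without endothelial cells and cluster 17, and the 0 higher became 1 when thinned. The share of all genes called is at hand for the main setting only, so these counts cannot be told from a general change in calls. Fewer UMIs enter the thinned and depth-limited counts, and nuclei under 2000 UMIs are left out of both.

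The glial and vascular classes over neurons (1.78 in HFD and 1.74 in NFD) gave 1.71 in HFD and 1.65 in NFD under 5% mitochondrial UMIs, 1.78 in NFD over 1000 UMIs, 1.47 in HFD and 1.59 in NFD when thinned, 1.24 in HFD and 1.246 in NFD with equal weights, 1.84 in HFD and 1.81 in NFD without Malat1 and mitochondrially encoded genes, 1.72 in HFD with members among the variable genes, 1.86 in HFD without the 6% highest doublet scores, and 1.15 in HFD and 1.69 in NFD among nuclei of 2000 to 8000 UMIs. Without endothelial cells it was 0.24 in HFD and 0.23 in NFD. The thinned values leave out nuclei under 2000 UMIs, among them 143 of 179 HFD microglia and 147 of 255 NFD endothelial nuclei. The causes were not tested. No paired analysis was possible because each diet has 1 library.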
